A study of Mus musculus with 9 samples.

Results

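This account concerns the comparison of conditional heterozygous (cHet) with conditional knockout (cKO) cortices of mouse embryos at embryonic day 12, in 3 RNA-seq libraries of each genotype. All 971 rows of the authors' deposited table for this comparison were used, out of 1030 genes that stand in any of the 3 deposited tables. They were divided by whether the same Ensembl identifier also stood in the table of cHet against wild type (WT). Present there were 190 of the 971, and 781 were absent. The 2 tables share the 3 cHet libraries, so the 190 genes are not independent evidence of a cHet effect.

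Every embryo carried Emx1 Cre/+, that is Cre recombinase from the Emx1 locus, which is active in progenitors of the dorsal telencephalon. The cHet embryos were Zbtb7a fl/+ and the cKO embryos Zbtb7a fl/fl. The WT embryos were Zbtb7a +/+ and carried the same Cre allele. Cre at Emx1 does not act in blood vessels, meninges or neurons that enter from the ventral telencephalon, although a dissected cortex holds RNA of all of them. Each group holds 3 cortices, taken over 2 litters, without a record of which embryo belonged to which litter. Each library is labelled as a separate animal.

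Zbtb7a encodes a zinc finger transcription factor of the BTB family that is known mainly as a repressor, for example of fetal globin genes in red cells. At embryonic day 12 the cortical wall consists mostly of radial glia, which divide at the ventricle, and of the first neurons they produce. Capillaries invade the wall from the surrounding mesenchyme at this stage, and their endothelium and pericytes lay down a basement membrane of collagens, laminins and nidogens.

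The targeted gene was not listed. Zbtb7a (chromosome 10, 81135220 to 81152995, mm10) stood in none of the 3 deposited tables, nor did Zbtb7b or Zbtb7c. Its level in each genotype is thus unknown here, and these tables do not check the genotype labels. Eif2s3y, a Y-linked gene present in both cHet tables, showed a log2 change of -23.04 (SE 3.91) for cHet over cKO by the authors' deposited table, a size that gives no readable fold. Of 10 sex-linked genes examined, Eif2s3y was listed for cHet against cKO and the other 9 were not. For cHet against WT, 2 of the 10 were listed, 1 higher and 1 lower. No label states the embryos' sex, so sex and genotype cannot be told apart.

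Values of single libraries were not analysed here, so each gene is given by its log2 fold change of cHet over cKO and its standard error (SE), as the authors' DESeq2 fit of 3 against 3 libraries gave them. A positive value means more RNA in cHet. A gene counts as listed at an adjusted p under 0.05. Of the 13375 genes that entered the adjustment, 7.26% were listed. Listed as higher in cHet were 417 genes, or 3.12%, and as lower 554 genes, or 4.14%. Among the listed genes closest to the threshold, Bcr had an adjusted p of 0.0499 by the authors' DESeq2 test, and genes beyond the threshold were not analysed here.

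The 781 genes absent from cHet against WT made up 5.84% of the genes adjusted. Of them, 322 were higher in cHet than in cKO (2.41% of the genes adjusted) and 459 were lower (3.43%). By the authors' deposited table the higher ones had a median log2 change of 0.50 (ratio 1.42) and the lower ones of -0.81 (ratio 0.571). Most changes were small. An absolute log2 fold change of at least 1 was reached by 14 of the higher genes and 104 of the lower genes by the authors' deposited table. Median SEs were 0.15 for these higher and 0.25 for these lower genes. Their median Wald statistics (change over SE) were 3.20 and 3.19 in absolute size. A gene with a larger SE needs a larger change to be listed, so these sizes do not rank the decreases above the increases. The 190 genes in both tables were split into 95 higher and 95 lower. Their medians for cHet over cKO were 0.50 and -1.02 by the authors' deposited table.

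Absence from the other table does not show that a gene differed less there. The table of cHet against WT had 248 genes out of 15465 adjusted (1.6%), where the next gene to be listed required a Wald statistic of 3.35 in absolute size, against 2.91 in the table described here. SEs of the genes in both tables were nearly equal between the comparisons, with ratios from 0.988 to 1.01. The SE of the cHet against cKO row was therefore used to ask whether a change of the same size would have been listed against WT. For 541 of the 781 absent genes it would not have been. The other 240, 99 higher and 141 lower, had statistics of at least 3.35. Such a gene had a smaller change against WT than against cKO if it entered the WT adjustment and had the same SE there. The tables record neither for an absent gene. These 240 are called within the reach of the WT table in the following, since a change of that size could have been listed there.

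**Figure D1:**
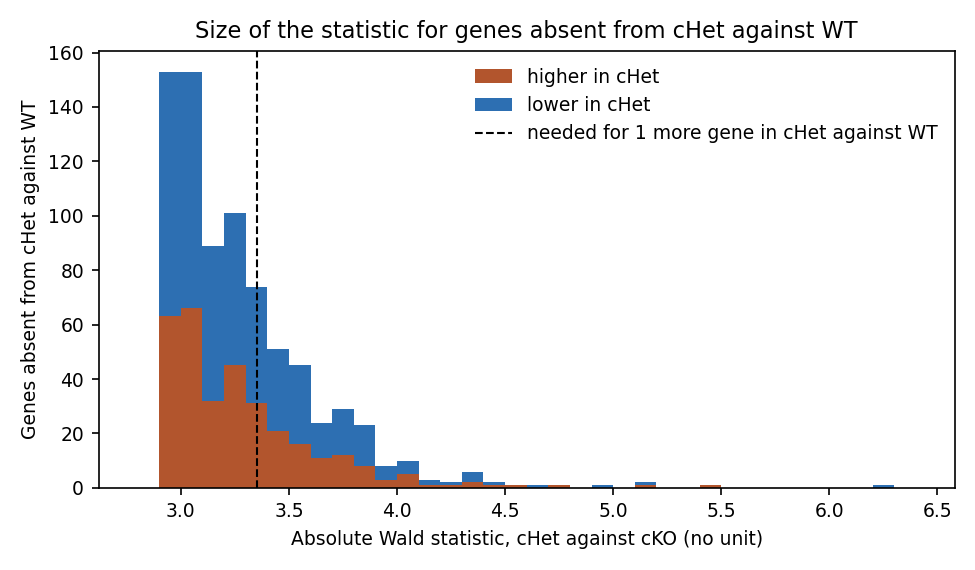
Absolute Wald statistics for cHet against cKO (x axis, no unit) of the 781 genes absent from cHet against WT, as stacked counts of genes (y axis). The dashed line at 3.35 is the statistic that 1 more gene would have needed against WT, and 240 genes lie at or beyond it.

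A set of vessel and extracellular matrix genes was higher in cHet than in cKO. Of 135 annotated genes in 4 lists (endothelium and pericyte, meninges and mesenchyme, collagens, laminins and integrins), 26 were listed, or 19.3%, beside 7.26% of all genes adjusted. All 26 were higher in cHet, all 26 were absent from cHet against WT, and 18 of them were within its reach. Their median log2 fold change was 0.88 by the authors' deposited table, a ratio of 1.84. The lists overlap and differed in share. Of meninges and mesenchyme genes 11 of 34 were listed (32.4%), and of collagens 7 of 44 (15.9%). Laminins and integrins had 3 of 37 (8.11%), a share near the background. Some annotated members will not have entered the adjustment, so shares of lists are lower bounds.

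Among endothelial genes, 10 of 30 in the endothelium and pericyte list were listed (33.3%, beside 7.26% of all genes adjusted). Kdr encodes the main VEGF receptor of endothelium and showed a log2 change of 0.93 (SE 0.24) by the authors' deposited table. Cdh5, the cadherin of endothelial junctions, had 1.11 (SE 0.30) by the authors' deposited table, and the guidance receptor gene Robo4 had 1.16 (SE 0.34). The endothelial transcription factor genes Sox18 and Sox7 had 0.88 (SE 0.25) and 1.03 (SE 0.31) by the authors' deposited table. Vwf (von Willebrand factor), Eng (the TGF-beta co-receptor endoglin), Tie1 and Plvap lay between 0.74 and 0.97 there. The pericyte receptor gene Pdgfrb had 0.69 (SE 0.18) by the authors' deposited table. By the authors' DESeq2 test the adjusted p ran from 0.0098 for Kdr to 0.045 for Tie1, and 7 of the 10 were within the reach of the WT table. The other 20 members, among them Pecam1, Cldn5 and Flt1, were not listed.

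Matrix genes had the smallest adjusted p of this group. Col15a1, a collagen of basement membrane zones, showed a log2 change of 1.41 (SE 0.27) and a ratio of 2.65 by the authors' deposited table, with an adjusted p of 1.3e-04 by the authors' DESeq2 test. The paired genes Col4a1 and Col4a2 encode the chains of the main basement membrane collagen and had 0.98 (SE 0.23) and 1.07 (SE 0.23) by the authors' deposited table. Lama4, the laminin chain typical of vessels, had 1.02 (SE 0.21) there, and Lamb1 had 0.63 (SE 0.18) by the authors' deposited table. The nidogen genes Nid1 and Nid2, whose products link laminin to collagen, had 0.73 (SE 0.22) and 0.83 (SE 0.22) by the authors' deposited table. Nid2 overlaps Rtraf over 437 bp of exon, so its count is uncertain where strand is not stated.

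Further collagens and cell surface members were higher as well. In the authors' deposited table Col3a1 had 0.97 (SE 0.26), Col5a2 0.84 (SE 0.27), Col6a2 0.82 (SE 0.26) and Col18a1 0.64 (SE 0.18). Itga11, an integrin that binds collagen, had 0.93 (SE 0.21) with an adjusted p of 0.0023 by the authors' DESeq2 test. The proteoglycan genes Bgn and Lum had 0.72 (SE 0.20) and 0.73 (SE 0.25) by the authors' deposited table, and the mesenchymal transcription factor gene Tbx18 had 0.73 (SE 0.23). Sparcl1, a secreted matrix-associated protein outside the lists, had 0.85 (SE 0.20) by the authors' deposited table. In bulk tissue, fewer cells of a type and less RNA per cell cannot be told apart, and the amount of vessel or meninges in each dissected sample was not tested. Blood genes were listed at shares near the background of 7.26%. Of 15 erythroid genes Hbb-y was listed (6.67%), lower at -0.74 (SE 0.24) by the authors' deposited table. Of 20 macrophage genes Pf4 was listed (5%), lower at -1.11 (SE 0.29) there.

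**Figure D2:**
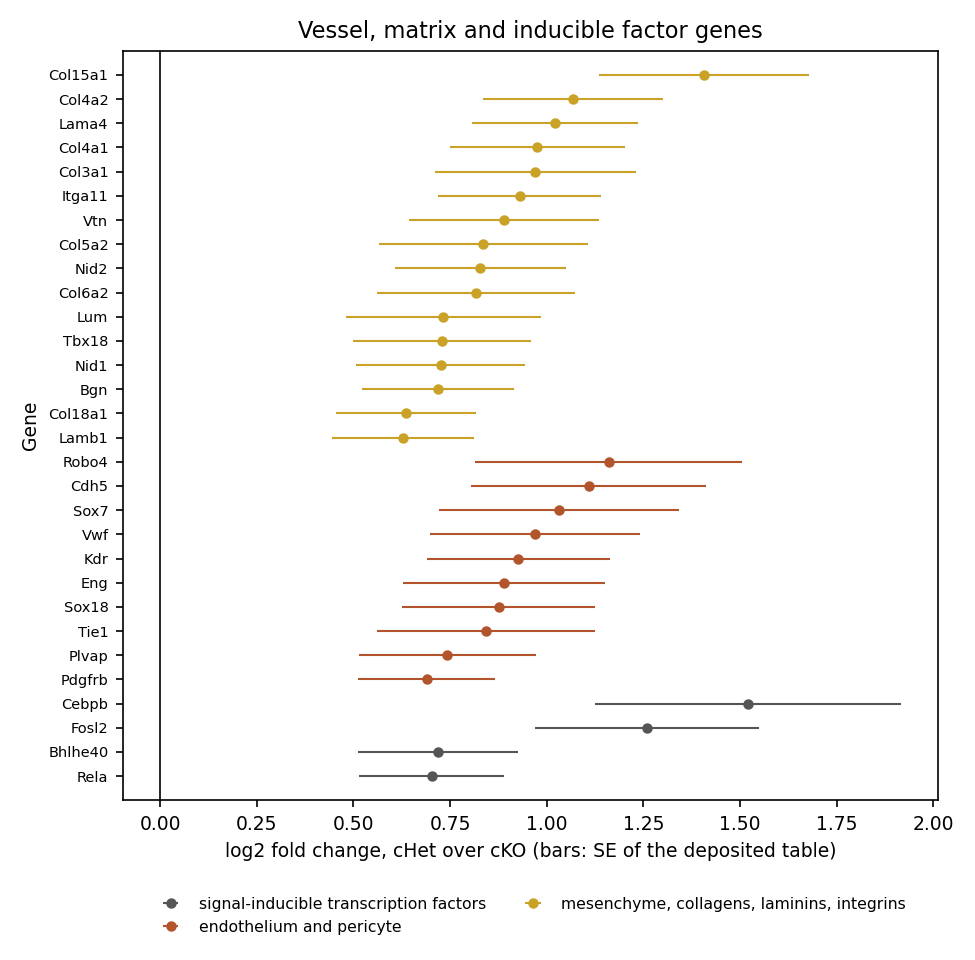
Log2 fold change of cHet over cKO (x axis) for each listed vessel, matrix and signal-inducible transcription factor gene (y axis), all absent from cHet against WT, with the SE as bars. All points lie above 0, from 0.63 for Lamb1 to 1.52 for Cebpb.

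Signal-inducible transcription factors were also among the genes higher in cHet. Of 31 members of this list 4 were listed (12.9%), all higher, absent from cHet against WT and within its reach. Cebpb, a leucine zipper factor of inflammatory and stress responses, showed a log2 change of 1.52 (SE 0.40) by the authors' deposited table, the largest increase in the comparison, and a ratio of 2.87. It overlaps a Tmem189 exon over 312 bp. Fosl2, an AP-1 subunit, had 1.26 (SE 0.29), Rela, a subunit of NF-kappaB, 0.70 (SE 0.19) and the repressor gene Bhlhe40 0.72 (SE 0.21) by the authors' deposited table. The adjusted p by the authors' DESeq2 test was 0.0029 for Fosl2 and 0.011 for Cebpb. Fos, Jun, Egr1 and the other members were not listed.

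A minority of the chromatin genes examined was listed. Tdg, which encodes the thymine DNA glycosylase of base excision repair, showed a log2 change of 1.05 (SE 0.19) and a ratio of 2.07 by the authors' deposited table, with an adjusted p of 5.5e-05 by the authors' DESeq2 test. Tdg has near-identical pseudogenes and overlaps Glt8d2 over 367 bp, so its count is uncertain. Of 45 NuRD and other chromatin regulators 6 were listed (13.3%), all higher, and Tdg, Baz1b and Suz12 were absent from cHet against WT. Baz1b, a subunit of an ISWI remodeller, had 0.38 (SE 0.11) and Suz12, a core subunit of the Polycomb complex PRC2, had 0.41 (SE 0.13) by the authors' deposited table. Among SWI/SNF subunits 4 of 26 were listed (15.4%, beside 7.26% of all genes adjusted). Smarca4, the ATPase, had 0.39 (SE 0.12) and the core subunit gene Smarcc1 had 0.53 (SE 0.17) by the authors' deposited table, both absent from cHet against WT. Ss18l1 and Actl6b, which encode subunits of the neuronal form of the complex, went the other way. They had -0.51 (SE 0.16) and -1.26 (SE 0.22) by the authors' deposited table, and Actl6b stood in both tables. The other 22 SWI/SNF genes were not listed.

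Further genes with small adjusted p among those higher in cHet and absent against WT were Ski and Bms1. Ski, a co-repressor of SMAD signalling, had 0.61 (SE 0.14) and Bms1, a GTPase of ribosome assembly, 0.59 (SE 0.15) by the authors' deposited table. Of 34 genes of BMP and TGF-beta signalling 3 were listed, all higher (8.82%), a share near the background. They included the ligand gene Tgfb2 at 0.60 (SE 0.18) and the inhibitory Smad6 at 0.57 (SE 0.17) by the authors' deposited table. Of 42 Wnt genes 3 were listed (7.14%), also near the background, with the receptor gene Fzd7 at 0.47 (SE 0.15) and Tcf7 at 0.64 (SE 0.22) absent against WT by the authors' deposited table.

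The deposited table of cKO against WT lists 4 genes, 0.0148% of 26976 adjusted. Of these, Tdg, Gjb2 and BC002163 were listed here, and all 3 were absent from cHet against WT. The tables share the cKO libraries. Tdg had -1.43 (SE 0.19) for cKO over WT beside 1.05 (SE 0.19) for cHet over cKO by the authors' deposited table. Gjb2, the gap junction gene of connexin 26, had -2.27 (SE 0.50) for cKO over WT beside 1.46 (SE 0.50) for cHet over cKO by the authors' deposited table. BC002163 had 2.26 (SE 0.46) for cKO over WT beside -2.89 (SE 0.46) for cHet over cKO by the authors' deposited table. In both tables Tdg and Gjb2 were thus lowest in cKO, and BC002163 was highest there.

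The pseudogene BC002163 had the smallest adjusted p of all genes absent against WT, 7.6e-07 by the authors' DESeq2 test, and a ratio of 0.135. It is a processed pseudogene on chromosome 16 and matched Ndufs5, a subunit gene of respiratory complex I on chromosome 4, at 99.4% over its 319 bp. Ndufs5 was not listed. The 2 transcripts are shown because short reads can be assigned to BC002163 rather than Ndufs5 only where they differ. Positions are counted from 1 at the 5′ end of the BC002163 transcript, the stretch runs from position 51 to 135, and capitals mark the 2 differing bases (T81C and A105G, with Ndufs5 as the reference).
Ndufs5: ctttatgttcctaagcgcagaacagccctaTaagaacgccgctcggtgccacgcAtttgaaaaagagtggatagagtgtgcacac
BC002163: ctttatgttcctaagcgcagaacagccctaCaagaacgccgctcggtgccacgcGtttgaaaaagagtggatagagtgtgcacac

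Of 13525 annotated pseudogenes 50 were listed (0.37%). How many pseudogenes entered the adjustment is not recorded, so this lower bound cannot be ranked against the 7.26% of all genes adjusted. All 50 listed pseudogenes were lower in cHet than in cKO, all 50 were absent from cHet against WT, and 22 were within its reach. Their median log2 fold change was -1.08 by the authors' deposited table, with a range from -2.89 to -0.43. Of the 50, 49 matched a protein-coding transcript at 95% identity or more over at least 90% of their length, with a median identity of 99.3%. For 15 of the 49 the closest gene encoded a protein of the cytosolic ribosome. None of the 85 genes of the cytosolic ribosome list was itself listed. Gm12338, which matched the cytochrome oxidase gene Cox7c without a mismatch, had -1.22 (SE 0.25) by the authors' deposited table.

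The genes most similar to these pseudogenes were listed in part. Among 45 distinct closest protein-coding genes, 10 were listed (22.2%), all 10 lower in cHet and none in cHet against WT. H3f3a, a gene of the replacement histone H3.3, had -0.80 (SE 0.25) and the pseudogene H3f3a-ps2 -1.27 (SE 0.31) by the authors' deposited table. Gpx4, a glutathione peroxidase gene, had -0.86 (SE 0.27) beside -1.04 (SE 0.27) for Gpx4-ps2 by the authors' deposited table. In all 11 pairs in which the closest gene was listed, the pseudogene had the larger decrease. The pseudogene also had the larger SE in each pair, and a gene with a larger SE needs a larger change to be listed. The order within the pairs is thus partly set by taking listed genes, and is not a result about pseudogenes. How multiply aligned reads were counted is not given in the sources used here, and its part in these values was not tested.

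Exon length and GC content differed with direction among the listed genes, in the absent genes and in those in both tables. Among protein-coding genes absent from cHet against WT, the 395 lower in cHet had a median merged exon length of 2928 bp. Their longest transcripts had a median of 5 exons. The 321 higher ones had 5780 bp and 13 exons. The lower and higher genes in both tables had 4434 and 5266 bp, and 6 and 12 exons. Of the absent lower genes 30.9% had under 2000 bp, of the absent higher genes 1.87%, and of all 22028 annotated protein-coding genes 25.9%. Among genes in both tables, 23.0% of the lower and 2.11% of the higher ones had under 2000 bp. The GC content of the longest transcript had a median of 45.9% for the absent lower and 52.8% for the absent higher genes, and of 45.5% and 55.2% for the lower and higher genes in both tables. These are descriptions of the genes called, without a test. RNA integrity and library preparation per embryo are not given, and their part was not tested.

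**Figure D3:**
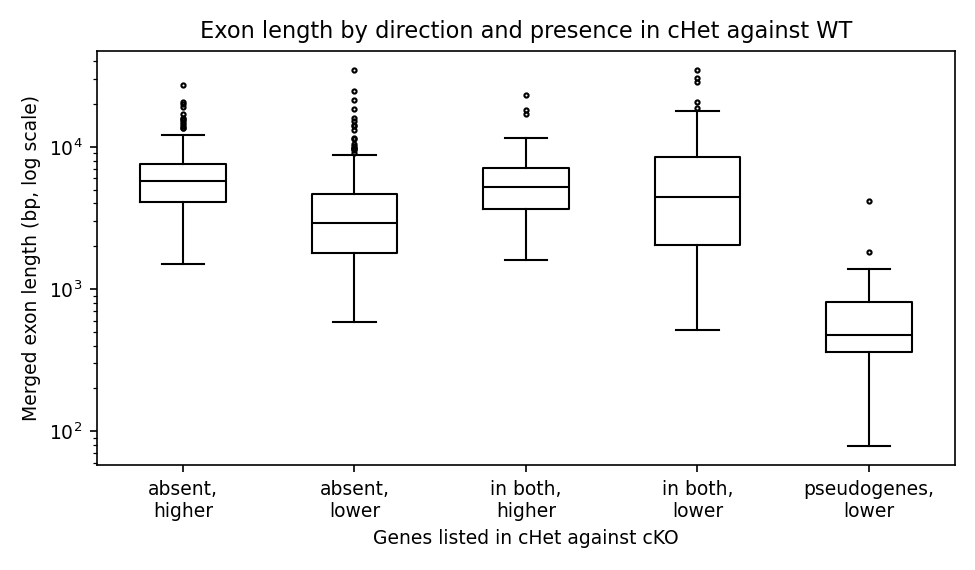
Merged exon length in bp on a log scale (y axis) of protein-coding genes listed in cHet against cKO, by direction and presence in cHet against WT, and of the 50 pseudogenes (x axis). Boxes show median and quartiles, whiskers reach 1.5 interquartile ranges and points lie beyond, and the absent lower genes (median 2928 bp) sit below the absent higher genes (5780 bp).

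The listed nuclear genes of the respiratory chain and mitochondrial ribosome were lower in cHet than in cKO, and most members of these lists were not listed. Respiratory complexes and ATP synthase make most of the ATP of a cell from oxygen. Of their 87 genes 13 were listed (14.9%, beside 7.26% of all genes adjusted), all lower and all absent from cHet against WT. The median log2 fold change of the 13 was -0.86 by the authors' deposited table, a ratio of 0.551. Only Ndufs4 among them was within the reach of the WT table. For the other 12, the same change with the same SE against WT would have gone unlisted. Their median exon length was 1831 bp.

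Complex I, which takes electrons from NADH, had 8 of 37 genes listed (21.6%, beside 7.26% of all genes adjusted). Ndufs4 showed a log2 change of -1.03 (SE 0.29), Ndufa7 -0.99 (SE 0.31), Ndufb8 -0.93 (SE 0.30) and Ndufv2 -0.86 (SE 0.28) by the authors' deposited table. Ndufb3, Ndufb7, Ndufc2 and Ndufs8 lay between -0.85 and -0.58 there. Complex III contributed Uqcrq at -0.95 (SE 0.30) and Uqcr10 at -0.92 (SE 0.31) by the authors' deposited table. ATP synthase contributed Atp5j2 at -0.91 (SE 0.29), Atp5h at -0.79 (SE 0.27) and Atp5f1 at -0.69 (SE 0.23) by the authors' deposited table. Adjusted p by the authors' DESeq2 test ran from 0.022 for Ndufs4 to 0.049 for Ndufb7. None of the 18 genes of complex IV was listed.

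The mitochondrial ribosome had 8 of 78 genes listed (10.3%, beside 7.26% of all genes adjusted), all lower and absent against WT. They ran from -1.04 (SE 0.34) for Mrpl14 to -0.55 (SE 0.18) for Mrpl17 by the authors' deposited table. Of 24 genes of protein import 4 were listed (16.7%, beside 7.26% of all genes adjusted), 3 lower and 1 higher. Timm10, a chaperone of the intermembrane space, had -0.93 (SE 0.30) and Tomm20, a receptor of the outer membrane, -0.90 (SE 0.30) by the authors' deposited table. The cytosolic co-chaperone gene Tomm34 had 0.53 (SE 0.15) by the authors' deposited table. Of 13 mitochondrially encoded protein genes 4 were listed (30.8%), all lower. Of these, mt-Atp6 at -1.92 (SE 0.59) and mt-Nd4 at -1.47 (SE 0.48) by the authors' deposited table were absent against WT. Both have nuclear copies at 100% identity over 678 and 876 bp.

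**Figure D4:**
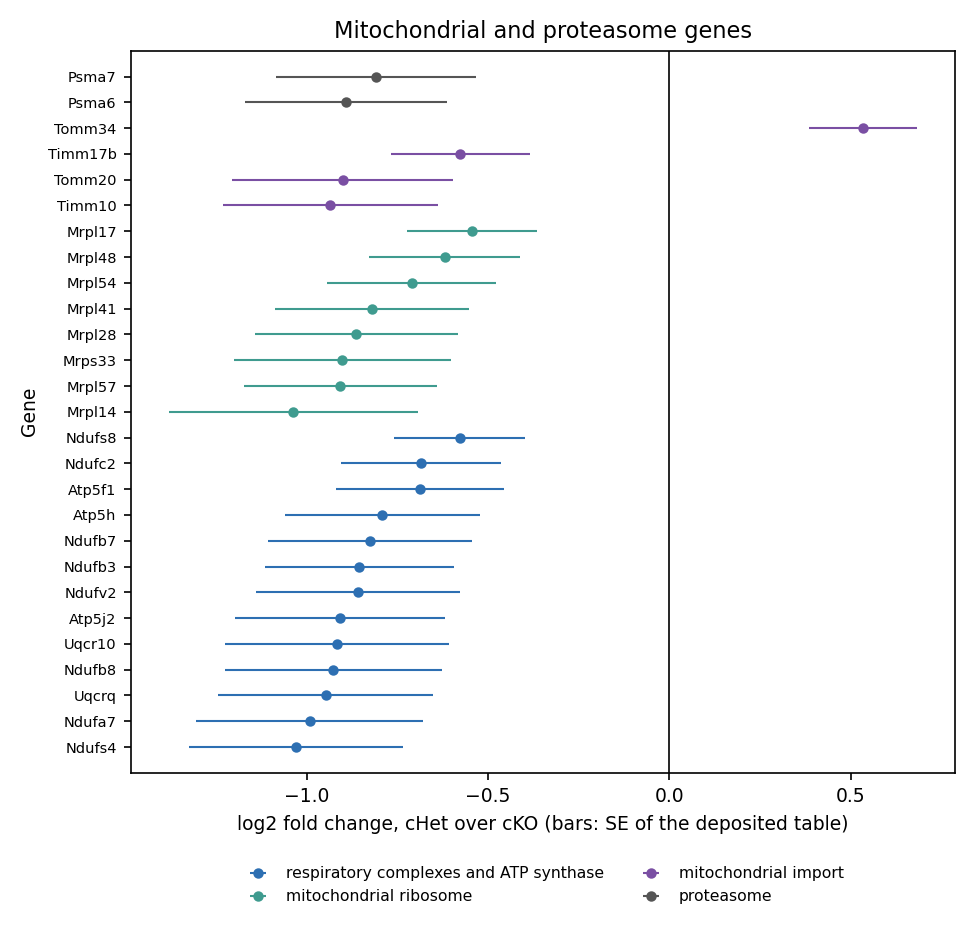
Log2 fold change of cHet over cKO (x axis) for listed genes of nuclear-encoded respiratory complexes and ATP synthase, mitochondrial ribosome, mitochondrial import and proteasome (y axis), all absent from cHet against WT, with the SE as bars. All lie below 0 except Tomm34 at 0.53.

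Promoters of these mitochondrial genes were searched for the binding motif of NRF1, a factor known to drive respiratory chain genes. The letters GCGCA, any base, then GCGC were sought on either strand in the 250 bases before the start site, in RefSeq windows of build GRCm38.p6. Of the 21 listed genes of the respiratory complexes, ATP synthase and mitochondrial ribosome, 18 had a window and 3 held the motif (16.7%). The share was 14.3% for absent lower genes, 13.2% for absent higher genes and 5.48% for all 16522 protein-coding windows. Among genes in both tables it was 9.21% of the higher and 2.90% of the lower ones. The windows differed in GC content, with medians of 63.6% for the 18 mitochondrial genes, 58.4% for absent lower and 63.4% for absent higher genes. For all windows the median was 56%. The letters GGGCGG (GC box) stood in 38.9%, 55.4%, 66.7% and 44.3% of these sets, in that order. All windows include genes that did not enter the adjustment, and the part of GC content was not tested. The sequences of Atp5h and Mrpl17 are shown as examples from ATP synthase and the mitochondrial ribosome, with the motif in capitals. Atp5h lies on the minus strand (chr11:115419920-115420169) with the motif starting at -141 from the start site, and Mrpl17 on the minus strand (chr7:105811088-105811337) with the motif at -49. A match of letters does not show binding.
Atp5h: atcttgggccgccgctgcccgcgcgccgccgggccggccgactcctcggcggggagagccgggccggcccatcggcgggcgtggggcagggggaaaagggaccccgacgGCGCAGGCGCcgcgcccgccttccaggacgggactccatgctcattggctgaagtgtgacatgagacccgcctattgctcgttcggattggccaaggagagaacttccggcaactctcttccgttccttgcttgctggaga
Mrpl17: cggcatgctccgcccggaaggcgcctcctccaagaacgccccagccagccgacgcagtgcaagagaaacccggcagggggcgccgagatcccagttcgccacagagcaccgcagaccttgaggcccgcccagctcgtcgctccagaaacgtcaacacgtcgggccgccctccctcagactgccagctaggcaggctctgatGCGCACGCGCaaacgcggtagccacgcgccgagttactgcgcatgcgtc

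Other short housekeeping genes were listed singly. The proteasome had 2 of 47 annotated genes listed (4.26%, a lower bound), with Psma6 at -0.89 (SE 0.28) by the authors' deposited table. Ubiquitin-conjugating enzymes had 3 of 37 (8.11%), all lower, among them Ube2b at -0.66 (SE 0.23) by the authors' deposited table. Replication histones, whose transcripts mostly lack a poly(A) tail, had 3 of 67 listed (4.48%), all lower, with Hist1h4c at -1.41 (SE 0.39) and Hist3h2ba at -0.99 (SE 0.23) by the authors' deposited table. Histone genes have near-identical copies and their counts are uncertain. No gene of the 25 spliceosomal Sm and LSm proteins was listed.

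Listed early neuron genes were mostly lower in cHet. Of 30 early cortical neuron genes 12 were listed (40.0%), 11 lower and 1 higher, the exception being Fezf2 at 0.64 (SE 0.13) by the authors' deposited table. The other 18 were not listed. The 6 absent from cHet against WT were all lower, with a median of -0.56 by the authors' deposited table. Tagln3, an actin-associated neuronal gene, had -0.59 (SE 0.16) and Stmn1, which encodes the tubulin-binding stathmin, -0.53 (SE 0.15) by the authors' deposited table, and both were within the reach of the WT table. Rtn1, Nsg1, Celf4 and Stmn4 lay between -0.66 and -0.35 there. Tuba1a, the main alpha-tubulin of young neurons, had -0.58 (SE 0.16) by the authors' deposited table. Stmn1 and Tuba1a have near-identical copies, so their counts are uncertain.

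Of 48 genes of synapse and excitability 9 were listed (18.75%, beside 7.26% of all genes adjusted), 8 lower and 1 higher. The 4 absent from cHet against WT were Snap25, Syt1, Ank3 and Kcnd2. Snap25, a SNARE protein of vesicle release, showed a log2 change of -1.08 (SE 0.25) by the authors' deposited table, with an adjusted p of 0.0025 by the authors' DESeq2 test. Syt1, the calcium sensor of release, had -0.77 (SE 0.22) and Ank3, a scaffold of the axon initial segment, -0.55 (SE 0.19) by the authors' deposited table. Kcnd2, a potassium channel gene, went the other way at 0.57 (SE 0.19) by the authors' deposited table. Outside this list, Nxph1, which encodes a secreted ligand of neurexins, had -2.17 (SE 0.42) and a ratio of 0.222 by the authors' deposited table, and Cdh8, a cadherin of neurons, had -1.19 (SE 0.28). The adjusted p was 1.5e-04 for Nxph1 and 0.0029 for Cdh8 by the authors' DESeq2 test. Snap25 and Syt1 were within the reach of the WT table, as were Nxph1 and Cdh8.

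The other leading genes of the absent lower set have diverse roles. Ppt1, a lysosomal thioesterase, had -0.57 (SE 0.12), and Pkia, an inhibitor of protein kinase A, had -0.83 (SE 0.19) by the authors' deposited table. Pantr1, a long noncoding RNA, had -0.88 (SE 0.20) and the predicted gene Gm11627 -1.28 (SE 0.29) by the authors' deposited table. Slc1a2, a glutamate transporter, had -0.91 (SE 0.23) by the authors' deposited table. Ppt1 shares 129 bp of exon with Cap1. The largest fitted decreases among absent genes were Gm14204 at -4.58 (SE 1.55), Sp9 at -4.56 (SE 1.40) and Dlx5 at -4.07 (SE 1.38) by the authors' deposited table. Sp9 and Dlx5 are transcription factors of ventral telencephalic neurons, and their SEs are so large that the same decrease against WT would not have been listed.

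Listed genes of the ventral list stood mostly in both tables. Of its 30 genes 9 were listed (30%, beside 7.26% of all genes adjusted), all lower, and 7 of the 9 were in both. Dlx1 had -5.15 (SE 1.33), Dlx2 -4.49 (SE 1.13) and Gad2, an enzyme of GABA synthesis, -4.78 (SE 1.28) for cHet over cKO by the authors' deposited table. The tables hold no expression levels to set beside these sizes. The amount of ventral tissue per sample was not tested.

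Listed radial glia genes likewise stood mostly in both tables. Of 29 radial glia genes 9 were listed (31.03%, beside 7.26% of all genes adjusted), and the other 20 were not. Of the 9, 6 were higher and 3 lower, and 8 stood in both tables. The exception was Ptprz1, a receptor phosphatase of radial glia, at -0.65 (SE 0.22) by the authors' deposited table. The largest changes of the list were decreases in both tables, of the noncoding gene Sox2ot at -1.35 (SE 0.19) and of Fabp7, a fatty acid binding protein gene of radial glia, at -1.05 (SE 0.20) by the authors' deposited table. The dorsal transcription factor genes in both tables were higher, among them Lhx2 at 0.47 (SE 0.11), Emx1 at 0.42 (SE 0.12), Emx2 at 0.40 (SE 0.11) and Rfx4 at 0.47 (SE 0.14) by the authors' deposited table. No member was listed for intermediate progenitors (15 genes), Cajal-Retzius and preplate cells (15), Notch signalling (24) or cholesterol synthesis (21).

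For the genes in both tables, values for cHet over cKO and cHet over WT are given side by side without a measure of likeness, since both are ratios to the same cHet libraries. Fezf2, a transcription factor of deep-layer neurons and their progenitors, had 0.64 (SE 0.13) over cKO and 0.65 (SE 0.13) over WT by the authors' deposited table. Lef1, a factor of Wnt signalling, had 0.67 (SE 0.14) and 0.54 (SE 0.13) by the authors' deposited table. Nsg2, a neuronal vesicle protein gene, had -1.46 (SE 0.19) and -1.32 (SE 0.19) there. The noncoding gene Gm29260 had the smallest adjusted p of the comparison, 1.8e-13 by the authors' DESeq2 test, with -2.50 (SE 0.29) and -2.29 (SE 0.29) by the authors' deposited table. Of the 190 genes, 77 had the larger absolute change over cKO.

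Other genes in both tables had changes of similar size. Kbtbd11 had 0.57 (SE 0.12) over cKO and 0.47 (SE 0.12) over WT, and Ide, the insulin-degrading enzyme, 0.59 (SE 0.13) and 0.47 (SE 0.13) by the authors' deposited table. Glycolysis had 5 of 25 genes listed (20.0%). The 4 in both tables were higher, with Tpi1 at 0.46 (SE 0.11), Eno1 at 0.59 (SE 0.15) and Pfkl at 0.43 (SE 0.11) by the authors' deposited table. Ldhb, a lactate dehydrogenase gene absent against WT, was lower at -0.48 (SE 0.12) by the authors' deposited table. Among 31 genes of DNA replication and G1/S, 5 of the 7 listed (22.6%) were in both tables and higher. Cdc6, which loads the replicative helicase, was absent against WT and had 0.54 (SE 0.16), and the helicase cofactor gene Gins2 had -0.67 (SE 0.23) by the authors' deposited table. Kbtbd11 overlaps Gm37844 over 1772 bp of exon, so its count is uncertain. Tpi1, Eno1, Ldhb and Cdc6 have near-identical copies, and their counts are uncertain too.

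**Figure D5:**
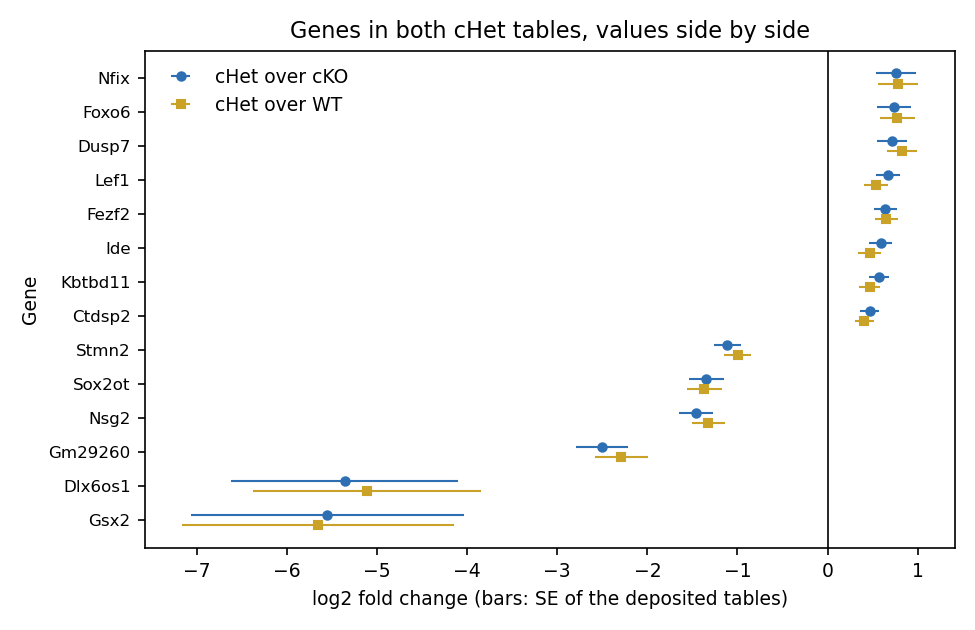
Log2 fold changes (x axis) of cHet over cKO (circles) and cHet over WT (squares) with the SE as bars, for leading genes that stand in both tables (y axis), not all of them, and without Eif2s3y at -23.04. The 2 values of each gene share the cHet libraries.

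Zinc finger genes, the largest family examined, went in both directions. Of 462 genes named Zfp, Zbtb, Zscan or Zkscan, 34 were listed (7.36%), a share near the background, and 30 of them were absent against WT. Of the 30, 20 were lower and 10 higher. Zfp84 had 0.58 (SE 0.15), Zfp553 0.54 (SE 0.14), Zfp811 -0.77 (SE 0.20) and Zfp943 -0.95 (SE 0.25) by the authors' deposited table. Solute carriers had 6 of 369 annotated genes listed (1.63%), a lower bound.

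Neighbours of the targeted gene were counted. Within 2 Mb on chromosome 10, 13 of 154 other annotated protein-coding genes were listed, or 8.44%, a share near the background of 7.26%. Of the 13, 9 were higher and 4 lower, and 12 were absent against WT. After Tdg, the smallest adjusted p was that of Ptbp1, a splicing repressor, at 0.64 (SE 0.17) by the authors' deposited table. Closest to Zbtb7a was Mrpl54, 0.112 Mb away, at -0.71 (SE 0.23) by the authors' deposited table. Nfic, a transcription factor gene 0.243 Mb away, had 0.52 (SE 0.15) there.

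Several smaller lists had shares of annotated genes near or below 7.26%, each a lower bound. Of 44 axon guidance genes 3 were listed (6.82%), among them the semaphorin receptor gene Plxnd1 at 0.65 (SE 0.20) and the ephrin receptor gene Epha3 at -0.88 (SE 0.26) by the authors' deposited table. Sufu, an inhibitor of Hedgehog signalling, was the only listed gene of 13 in its list (7.69%), at 0.51 (SE 0.16) by the authors' deposited table. Of 25 mitosis genes the spindle checkpoint gene Mad2l1 was listed (4%), at -0.67 (SE 0.22) by the authors' deposited table. Of 20 hypoxia genes the mitophagy receptor gene Bnip3l was listed (5%), at -0.58 (SE 0.18) there. Plxnd1, Epha3, Sufu, Mad2l1 and Bnip3l were absent from cHet against WT, as were 44 of the 45 listed predicted genes named Gm, all lower in cHet. These 45 were 0.168% of 26736 annotated Gm genes. Only 13375 genes of any kind entered the adjustment, so this share cannot be set against 7.26%.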

How the data were processed

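Polyadenylated RNA of 9 cortices was sequenced. The authors used cutadapt, featureCounts and DESeq2 with build mm10, per the submitters' processing notes, which give no versions here. The authors' deposited tables hold log2 fold changes with SEs, a statistic (a score equal to fold change over SE in all 971 rows) and adjusted p-values, all under 0.05. Direction follows the order of names in each table's title (cHet over cKO), an assumption no header states. The base of 2 is read from the tool, not stated per the file headers. Counts per library were not analysed here, so depth is unknown and the planned count tests could not be run.

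Members and gene lists were chosen with earlier results of these data known. The number of genes adjusted was recovered by inverting the Benjamini-Hochberg adjustment from the deposited statistics, and the functions were tested on simulated data. All 971 identifiers matched GENCODE M21, from which gene types, exons and coordinates were taken. Names follow the tables, or the annotation for the 13 rows without one. No set test or resampling was made. Pseudogenes and named genes were aligned with BLAST 2.17.0, reporting copies at 95% identity over 300 bp and exon overlaps of at least 100 bp. Not every copy or overlap found is stated beside its gene. Named genes were the 10 higher and 10 lower absent genes with the smallest adjusted p and the 5 largest changes each way, the 5 and 3 for genes in both tables, up to 4 per list over 49 lists, and listed genes within 2 Mb of Zbtb7a. Some genes this rule selects are not reported here. Other list members named were chosen after their values were seen. Tools were matplotlib 3.10.9, SciPy 1.17.1, NumPy 2.4.6 and pandas 2.3.3 under Python 3.11.15.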

Additional observations from a re-analysis of the deposited data

How the results depend on the processing

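With the adjusted p threshold at 0.01, 49 genes stayed higher in cHet and 84 lower. Of the genes absent from cHet against WT, 18 higher and 23 lower were left, with median log2 changes of 0.89 and -0.99. Of 146 named genes, 60 passed that threshold and 86 did not. An absolute log2 change of at least 0.5 left 214 higher genes, 164 of them absent against WT, and moved the lower counts by less than 1.5 times. Among protein-coding genes alone the absent lower genes had a median log2 change of -0.78. Protein-coding genes with at least 2000 bp of exons, an alternative chosen after seeing the data, left 315 absent genes higher and 273 lower, against 322 and 459. Medians of the longest transcript in place of merged exons were 4518 bp for absent higher and 2189 bp for absent lower genes. For genes in both tables they were 3775 bp for the higher and 3379 bp for the lower ones. A maximum SE of 0.5, matching by gene name and a rescaled SE kept every count within 1.5 times. No paired analysis was possible because the tables hold no values per library, and for the same reason leaving out libraries was not run. Precision is limited by 3 embryos per group and an unknown depth.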
